A study of Mus musculus with 24 samples.

Results

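The 10 melanin synthesis genes Tyr, Tyrp1, Dct, Pmel, Mlana, Slc45a2, Slc24a5, Oca2, Mitf and Gpr143 were followed through 24 RNA-seq libraries of mouse choroid. They were chosen by name, as pigment cell genes, and each matched 1 of the 56065 gene identifiers in the table. The libraries came from wild type mice without laser (n = 4), Ceacam1-/- mice without laser (n = 4), laser-treated wild type mice (n = 9) and laser-treated Ceacam1-/- mice (n = 7). The knockout mice lack exons 1 to 2 of Ceacam1 in every cell and were compared with wild type littermates, all on a C57BL/6J background, of both sexes and 6 to 8 weeks old. Laser treatment placed 6 spots of 200 µm per eye at 150 mW for 100 ms, a procedure that breaks Bruch's membrane and starts choroidal neovascularization. The time between laser and tissue collection, the sex of each mouse and the batch of each library are not given in the sources used here, and for the laser-treated groups nothing states that the libraries came from separate animals, so p-values there measure the spread between these libraries. Values are normalized counts, for which the authors scaled each gene's estimated reads to the size of the library and to the mean length of its transcripts. They summed to between 23704346 and 35094410 per library (median 25708886).

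Melanin is made in melanosomes, organelles related to lysosomes, in the melanocytes of the choroid and in the retinal pigment epithelium (RPE), which lies on the choroid. Tyrosinase oxidizes tyrosine, the products of Tyrp1 and Dct act on later intermediates, and the pigment is laid down on fibrils of the Pmel protein. The transcription factor MITF acts on most of these genes by binding E-box sequences in their promoters. Both pigmented cell types use this machinery, so a bulk library of choroid with attached RPE sums over them, and fewer pigmented cells and less RNA per pigmented cell cannot be told apart.

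The promoters of the tyrosinase family are shown because the 3 genes share 1 stretch of letters there, known from the literature as the M-box. Each sequence holds the 250 bases before the start of the gene's canonical transcript (GENCODE annotation), 5′ to 3′ on the gene's own strand, read from GRCm39. Capitals mark the E-box letters CATGTG. The windows are chr7:87142721-87142970 (minus strand) for Tyr, chr4:80752192-80752441 (plus strand) for Tyrp1 and chr14:118289598-118289847 (minus strand) for Dct.
Tyr: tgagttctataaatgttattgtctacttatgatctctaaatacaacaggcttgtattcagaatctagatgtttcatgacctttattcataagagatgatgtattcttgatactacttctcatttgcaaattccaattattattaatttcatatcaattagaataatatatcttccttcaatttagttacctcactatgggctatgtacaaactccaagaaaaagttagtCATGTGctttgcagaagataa
Tyrp1: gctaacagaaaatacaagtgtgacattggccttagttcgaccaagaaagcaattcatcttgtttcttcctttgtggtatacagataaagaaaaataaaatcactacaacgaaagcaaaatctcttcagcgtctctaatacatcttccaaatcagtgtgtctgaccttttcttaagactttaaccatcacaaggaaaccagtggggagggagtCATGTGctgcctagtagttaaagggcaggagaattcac
Dct: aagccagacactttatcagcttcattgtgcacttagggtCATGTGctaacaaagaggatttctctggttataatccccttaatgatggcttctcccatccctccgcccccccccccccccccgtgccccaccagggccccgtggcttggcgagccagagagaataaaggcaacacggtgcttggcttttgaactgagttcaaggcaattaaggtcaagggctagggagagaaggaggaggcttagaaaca
The letters began 21 bases before the start in Tyr, 38 in Tyrp1 and 211 in Dct. Searched on both strands in windows from 250 bases before to 50 after the start, CATGTG was present in 5 of the 10 melanin promoters, where a match on the other strand reads CACATG. The other 2 were Mlana, with CACATG 242 bases before the start, and Gpr143, with CACATG 231 bases before it. Of 21586 promoters of protein-coding genes of the same length, 2572 (11.9%) held CATGTG on either strand. The palindromic E-box CACGTG was in none of the 10 windows and in 1697 (7.86%) of all promoters. The longer run TCATGTGCT, chosen after the sequences were read, was in Tyr, Tyrp1, Dct and 68 promoters in all (0.315%), those 3 included. These matches are letters only and no binding was measured. The window of Mitf lies at its most upstream start, and the separate start used in melanocytes was not examined.

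Before the values of the melanin genes, the libraries themselves were compared, since 3 of them stood apart. In the laser-treated Ceacam1-/- libraries 14, 15 and 18, each of the 10 melanin genes was lower than in all other 21 libraries, as were 4.37% of the 19950 genes with a mean of at least 10. Library 18 had the lowest value for 8 of them and library 14 for Pmel and Mlana. The summed melanin genes took 0.0514%, 0.119% and 0.0447% of all values in libraries 14, 15 and 18, against 0.192% to 0.828% in the other 21. At the other end, laser-treated Ceacam1-/- library 7 had the highest value for 6 of the 10 genes. For the other 4 genes the highest value lay in another group.

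Markers of other cells moved in the same libraries. The 8 photoreceptor genes summed to 978992, 563167 and 1063376 in libraries 14, 15 and 18, or 4.13%, 2.22% and 4.37% of all values. In the other 21 libraries the share ran from 0.0201% to 2.52% (median 0.247%), with wild type library 21 at 2.31% and Ceacam1-/- library 23 at 2.52%, both without laser. All 8 genes were above 0 in each of the 24 libraries. The RPE list fell on the other side, and 10 of its 12 genes were lower in libraries 14, 15 and 18 than in all others. Rpe65, the isomerase of the visual cycle, had 4286, 3644 and 2045 in libraries 14, 15 and 18 and between 10506 and 56349 elsewhere. Sox10, a transcription factor of melanocytes and Schwann cells that RPE lacks, had 374, 536 and 298, against 1394 to 3498 elsewhere. Of the 8 melanocyte markers outside the melanin genes, 5 were lower in the 3 libraries than in all others, as were 4 of 6 Schwann cell genes, 2 of 7 endothelial genes and 1 of 8 myeloid genes. Over all genes with a mean of at least 10, this share was 4.37%. The 7 fibroblast and sclera genes summed to between 46389 and 115686 in the 3 libraries and to between 443102 and 705923 in the other 4 of their group. Over all other 21 libraries their sum ran from 40124 to 705923, and 0 of the 7 were lower in the 3 libraries than in all others. The 6 keratinocyte and corneal genes of the surface epithelium list reached 403128 in library 15 and 400468 in the untreated Ceacam1-/- library 28, and were at 154 and 408 in libraries 14 and 18. The part of these other cells in the low melanin values was not tested. Library 23, an untreated Ceacam1-/- library, stood apart in another way, with a Schwann cell sum of 551362 where the next highest was 112720, and without it no melanin gene was called for genotype without laser either. Libraries 14, 15 and 18 were picked after their values were seen, those of the melanin genes included. The laser and genotype results of the 10 genes are therefore given with and without them, and p-values without them do not account for this choice.

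**Figure D1:**
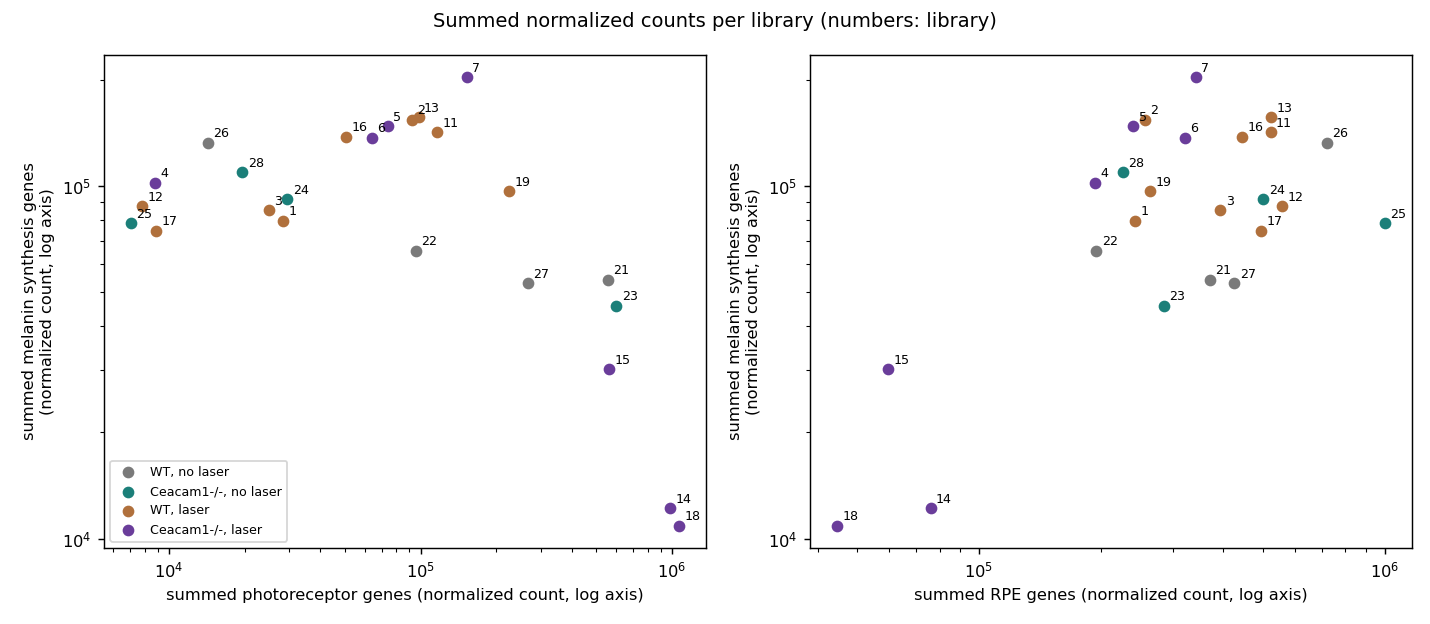
Summed normalized counts of the 10 melanin synthesis genes (vertical, log axis) against those of the 8 photoreceptor genes (left) and the 12 RPE genes (right, log axes), with 1 point per library, coloured by group and numbered. Libraries 14, 15 and 18 lie below all others for the melanin genes, at 12185, 30172 and 10877, and to the left of all others for the RPE genes.

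The knockout was checked on Ceacam1 (chromosome 7, 25161128 to 25177257), which encodes a cell adhesion molecule. In laser-treated mice its normalized count ran from 774 to 8367 (median 996, n = 9) in wild type and from 67.8 to 905 (median 335, n = 7) in Ceacam1-/- libraries. Of these 7 Ceacam1-/- libraries, library 15, at 905, was above the lowest wild type value. Without laser the wild type libraries had 958, 5027, 1242 and 4596 and the Ceacam1-/- libraries 405, 505, 508 and 1171, so that library 28, at 1171, was above the lowest wild type value and the groups overlapped both with and without laser. Libraries 15 and 28 had the highest sums of the surface epithelium list, at 403128 and 400468. Wild type libraries 19, 22 and 27, those with the highest Ceacam1, had 105010, 299718 and 70674. The part of epithelium in these values was not tested. The log2 fold change was -2.17 with laser (standard error 0.52, adjusted p = 0.104, limma) and -1.95 without (standard error 0.60, adjusted p = 0.999, limma). Tyr and Oca2 share this chromosome, at distances of 61.9 and 30.7 Mb from Ceacam1.

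The enzymes of the pathway are given first. Tyr (ENSMUSG00000004651, chromosome 7, 87073979 to 87142720), the rate-limiting enzyme, had 3123, 2190, 5355 and 3406 normalized counts in the 4 wild type libraries without laser and 2430, 3339, 3003 and 1728 in the 4 Ceacam1-/- libraries. After laser it ran from 1682 to 10737 in wild type (median 5743) and from 347 to 5814 in Ceacam1-/- mice (median 4172). In wild type mice the laser-treated and untreated values overlapped. In Ceacam1-/- mice no laser-treated library lay within the untreated range, as libraries 14, 15 and 18 were below it, at 489, 1091 and 347, and the other 4 were above it, and Tyrp1, Pmel and Slc45a2 were split in the same way. Tyrp1 (ENSMUSG00000005994, chromosome 4, 80752360 to 80769956), which stabilizes tyrosinase and acts late in eumelanin synthesis, had 9049, 13556, 23721 and 7646 in wild type and 7178, 10907, 8255 and 13170 in Ceacam1-/- mice without laser. In laser-treated mice it ran from 5211 to 39399 (median 20211) and from 1189 to 44881 (median 16802). The laser-treated groups were the wider ones, and wild type library 17 fell below all libraries without laser. Dct (ENSMUSG00000022129, chromosome 14, 118250202 to 118289656), the dopachrome tautomerase, had the highest normalized count of the 10 genes, 38504 ± 17461 over the 24 libraries (SD). Without laser it had 22230, 25459, 55225 and 23560 in wild type and 18785, 43314, 41152 and 52138 in Ceacam1-/- mice. With laser it ran from 32884 to 65081 in wild type (median 41639) and from 5437 to 70733 in Ceacam1-/- mice (median 40322). All 9 laser-treated wild type libraries lay above 3 of the 4 untreated ones, and library 26 lay within their range.

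Of the structural proteins of the melanosome, Pmel (ENSMUSG00000025359, chromosome 10, 128540064 to 128556107) forms the amyloid fibrils on which melanin is laid down. It had 7969, 10939, 20401 and 6371 in wild type and 7126, 11908, 8163 and 16977 in Ceacam1-/- mice without laser. After laser it ran from 5586 to 34627 in wild type (median 17340), and in Ceacam1-/- mice it was 20278, 31466, 28697 and 48613 in libraries 4 to 7 and 933, 4936 and 1117 in libraries 14, 15 and 18. Libraries 5 to 7 were above all untreated libraries of either genotype, and library 4 was above all but library 26. The gene overlaps Dgka and Cdk2 on the opposite strand, and the counting is not stated to use strand. Of the other 9 genes, Slc24a5 overlaps Myef2, and Dct, Oca2 and Mitf overlap noncoding genes or a pseudogene on the opposite strand. Mlana (ENSMUSG00000024806, chromosome 19, 29674900 to 29686034), a small membrane protein of early melanosomes, had 5004, 6730, 12711 and 4585 in wild type and 4752, 12976, 7356 and 15911 in Ceacam1-/- mice without laser. In laser-treated mice it ran from 6689 to 14146 (median 7815) and from 1331 to 14362 (median 10055). The highest Mlana value of the series was therefore found in an untreated Ceacam1-/- library, number 28.

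The transporters set the pH and ion content of the melanosome. Slc45a2 (ENSMUSG00000022243, chromosome 15, 11000803 to 11029319) had 1129, 1511, 3067 and 1191 in wild type and 1045, 1678, 1575 and 2470 in Ceacam1-/- mice without laser. With laser it ran from 905 to 4537 (median 2155) and from 159 to 5775 (median 2483). Slc24a5 (ENSMUSG00000035183, chromosome 2, 124909836 to 124930597), a cation exchanger, had 2736, 3030, 6224 and 3067 and 2350, 4454, 3903 and 4197 without laser in wild type and Ceacam1-/- mice. It ran from 3243 to 7478 (median 4577) and from 742 to 7614 (median 4379) after laser. For both transporters the untreated wild type library 26 was above the other 3 and within the range of the laser-treated wild type libraries. Oca2 (ENSMUSG00000030450, chromosome 7, 55889191 to 56186280), the gene of the P protein and of the pink-eyed dilution coat colour, had 1268, 830, 2991 and 1479 in wild type and 904, 1182, 2272 and 875 in Ceacam1-/- mice without laser. After laser it ran from 771 to 3327 (median 1608) and from 116 to 2830 (median 1494). For all 3 transporters the medians of laser-treated wild type and Ceacam1-/- libraries differed by less than the SD within either group.

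The regulator and the receptor were the least abundant. Mitf (ENSMUSG00000035158, chromosome 6, 97783950 to 97998323) had 1004, 841, 1648 and 988 in wild type and 669, 1313, 1425 and 1384 in Ceacam1-/- mice without laser. In laser-treated mice it ran from 825 to 1944 (median 1459) and from 229 to 2080 (median 1080). These counts sum over its isoforms, of which RPE, melanocytes and other cells use different ones. Gpr143 (ENSMUSG00000025333, chromosome X, 151564842 to 151591652), a receptor in the melanosome membrane that is mutated in ocular albinism, had 677, 514, 1521 and 772 in wild type and 518, 744, 1287 and 777 in Ceacam1-/- mice without laser. With laser it ran from 321 to 1441 (median 950) and from 52.0 to 1125 (median 695). It was the only one of the 10 whose highest value came from an untreated wild type library, number 26.

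**Figure D2:**
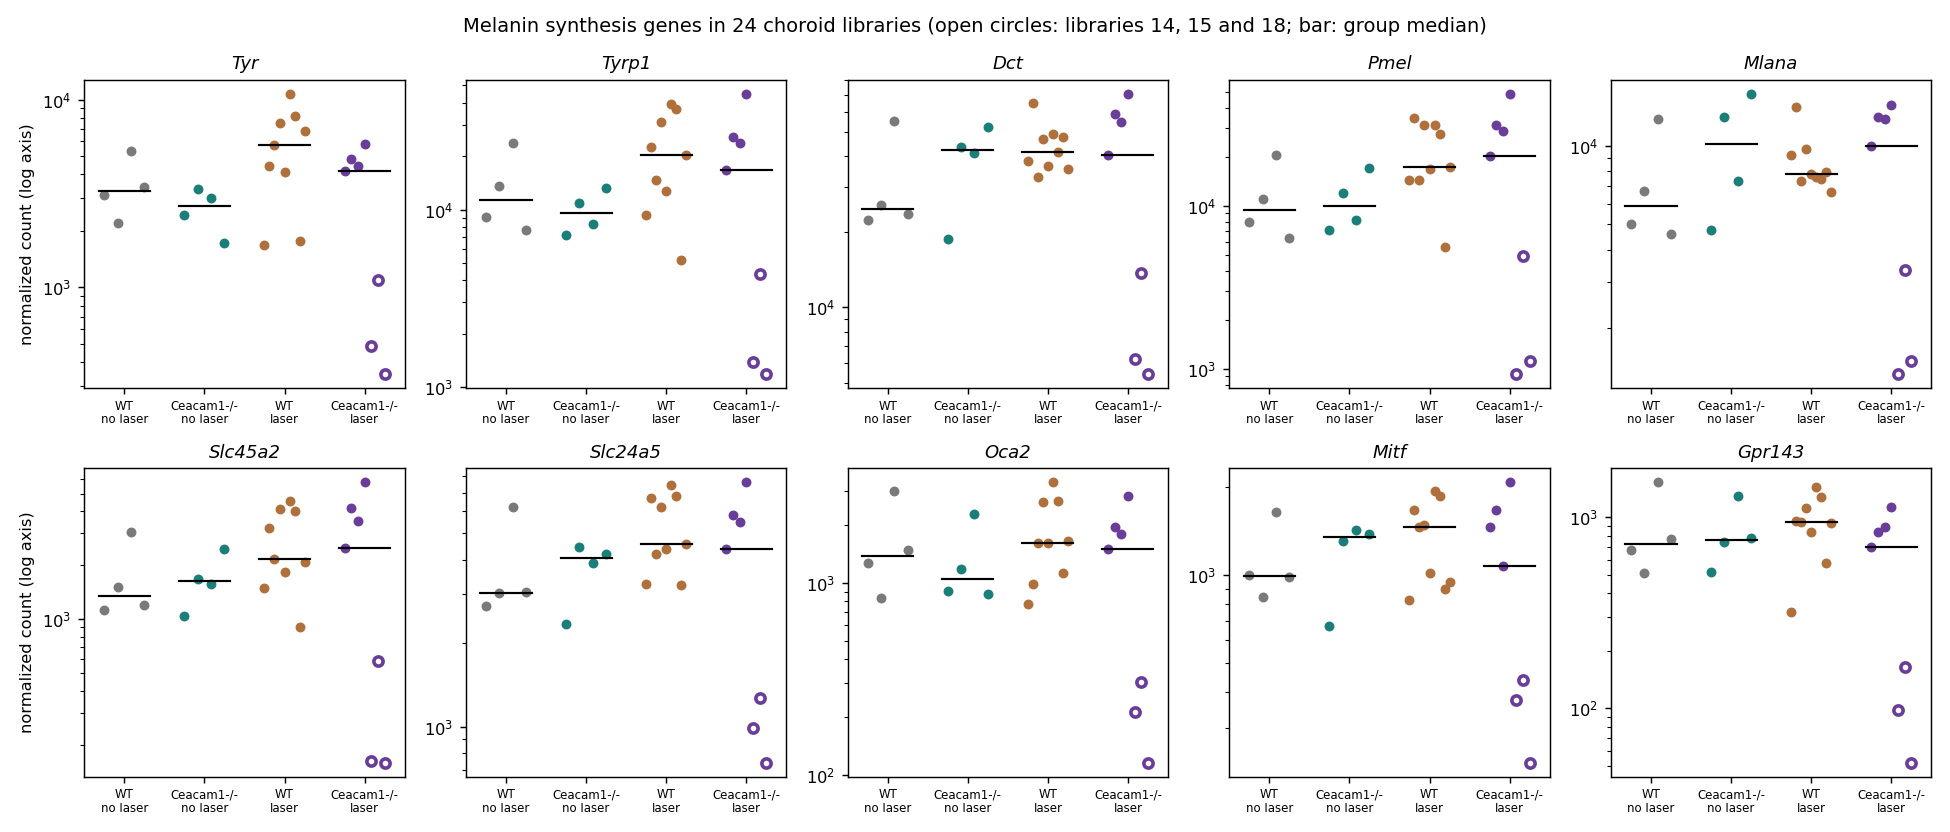
Normalized count (log axis) of each melanin synthesis gene in every library, by group, with the group median as a bar. Open circles are libraries 14, 15 and 18, which lie below the other 21 libraries in all 10 panels, whereas the other 4 laser-treated Ceacam1-/- libraries overlap the laser-treated wild type ones.

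To set the genes beside each other, normalized counts were divided by the length of all exons of the gene. The levels fell into 2 tiers. Pmel had 7620 ± 5326 normalized counts per kilobase (SD, n = 24), Mlana 7278 ± 3484, Dct 6532 ± 2962 and Tyrp1 5944 ± 4262. Neighbours within this upper tier were not in a fixed order, and Pmel was above Mlana in 10 of 24 libraries, Mlana above Dct in 18 and Dct above Tyrp1 in 18. The lower tier began with Slc45a2 at 765 ± 496, and Tyrp1 was above Slc45a2 in all 24 libraries. Slc24a5 followed at 737 ± 337, Tyr at 567 ± 360, Gpr143 at 382 ± 190 and Oca2 at 356 ± 206 normalized counts per kilobase. Of these neighbours, Slc45a2 was above Slc24a5 in only 8 libraries and Gpr143 above Oca2 in 15, while Slc24a5 was above Tyr and Tyr above Gpr143 in 21 each. Mitf was lowest, at 118 ± 49.4, and lay below Oca2 in all 24 libraries. Thus tyrosinase itself had a mean level per kilobase below those of its relatives Tyrp1 and Dct. The order depends on the length used, and with the longest transcript in place of all exons Dct came first at 11132 and Slc24a5 rose to 1373.

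**Figure D3:**
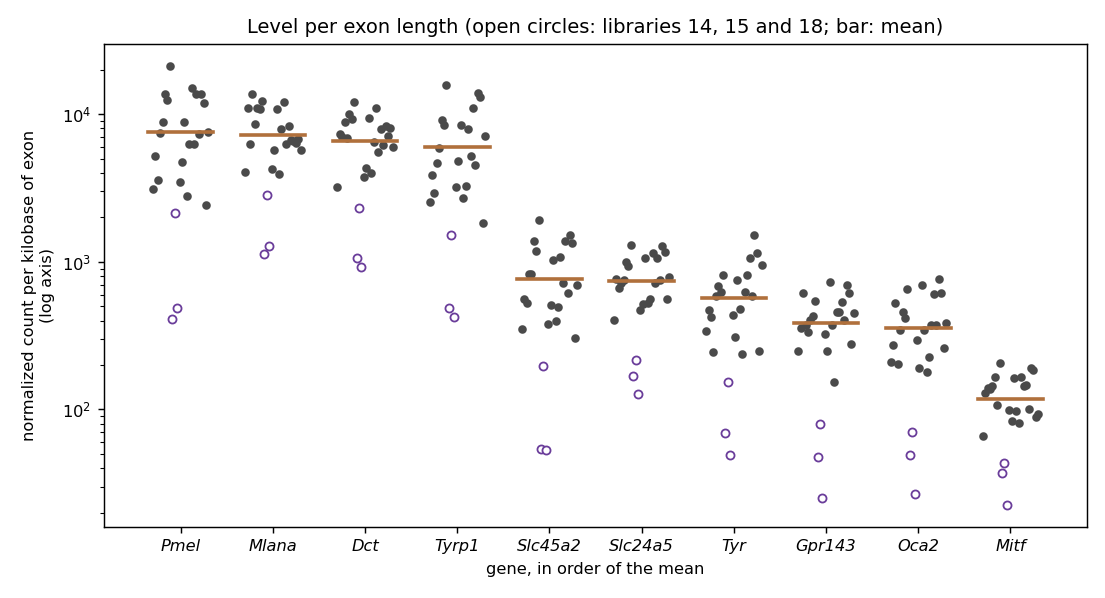
Normalized count per kilobase of exon (log axis) of each gene in the 24 libraries, ordered by the mean (bar). Pmel, Mlana, Dct and Tyrp1 form the upper tier, and the means of the other 6 genes lie between 118 and 765.

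Genotype was compared first in the 8 libraries without laser. None of the 10 melanin genes passed the test (limma on log2 of the value plus 1, Benjamini-Hochberg adjustment over 20057 genes, threshold 0.05), and neither did any other gene, so that 0% of all genes tested were called. The deleted gene Ceacam1 was not called either (adjusted p = 0.999, limma). The study's own choroid comparison, made with DESeq2 and sex as a covariate, did report differentially expressed genes. The 0% therefore belongs to the fit used here and does not show that no gene differed. At an unadjusted p under 0.05 there were 307 genes, none of them a melanin gene. The log2 fold changes of Ceacam1-/- against wild type lay between -0.39 for Tyr and 0.47 for Mlana, with a median of 0.02, beside -0.02 for all genes. The 95% confidence interval was -1.09 to 0.31 for Tyr and -0.56 to 1.50 for Mlana. With libraries weighted by how closely their values follow their group (array weights), Mlana was at 1.11 (95% confidence interval 0.35 to 1.87, adjusted p = 0.350, limma). Dct was at 0.70 in that fit (adjusted p = 0.359, limma), and no melanin gene was called. The groups overlapped for each of the 10 genes, and for all genes tested the share without overlap was 1.36%.

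In the 16 laser-treated libraries the 10 genes all had lower mean log2 values in Ceacam1-/- mice, and again none passed the test. Of 19757 genes tested, 4 were called (0.0202%). The log2 fold changes ran from -1.35 for Gpr143 (standard error 0.58, adjusted p = 0.193, limma) and -1.33 for Tyr (standard error 0.61, adjusted p = 0.209, limma) to -0.61 for Mlana (standard error 0.47, adjusted p = 0.420, limma), with a median of -1.05 beside 0.01 for all genes. Gpr143 and Tyr were under an unadjusted p of 0.05, as were 22.7% of all genes tested. The sum of 4 Y-linked genes was at least 4777 in 5 of 9 wild type and 1 of 7 Ceacam1-/- libraries and at most 39 in the remainder, 14, 15 and 18 included, so the Y-linked genes were unevenly spread over the genotypes. With that sum as a covariate the median was -1.11 and no melanin gene was called. Markers of other cells differed between the genotypes too, with a median log2 fold change of -1.45 over the 12 RPE genes (11 of them under an unadjusted p of 0.05), -1.33 over the 6 skeletal muscle genes (6 of 6) and 2.10 over the 8 photoreceptor genes (5 of 8), and their part in the melanin values was not tested. With a score of the RPE genes (their mean log2 value) as a covariate, all 10 estimates were above 0. With array weights, 6 of the 10 were above 0. No melanin gene was called in either fit. Without libraries 14, 15 and 18 the estimates of the melanin genes were near or above 0. Of the 10 genes, 9 then had a log2 fold change above 0, from 0.02 for Gpr143 to 0.70 for Pmel, and Tyr was at -0.01. The median was 0.31, and none passed the test, with 0.0104% of genes called. Mlana had the lowest p of the 10, with a log2 fold change of 0.56 (95% confidence interval 0.18 to 0.93, adjusted p = 0.357, limma). In the same fit the 12 RPE genes were still all below 0 (median -0.55, 1 under an unadjusted p of 0.05). The 6 skeletal muscle genes were also all below 0 (median -0.74, 2 of 6). The 7 fibroblast and sclera genes were all above 0 (median 0.88, 5 of 7), and so were the 6 Schwann cell genes (median 0.89, 2 of 6). Of all 19316 genes tested in that fit, 8.40% were under that p. Of the remaining 4 Ceacam1-/- libraries, all 4 were above the wild type median for Pmel, Mlana and Slc45a2 and 1 of 4 for Tyr and Gpr143.

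Laser was compared within each genotype in 1 fit of all 24 libraries. In wild type mice all 10 genes had higher mean log2 values after laser and none passed the test, whereas 5.28% of 19950 genes were called, 844 upward and 209 downward. The log2 fold changes lay between 0.11 for Gpr143 and 0.88 for Pmel (standard error 0.81, adjusted p = 0.557, limma), with a median of 0.51, beside -0.10 for all genes. The groups overlapped for each of the 10 genes, whereas 6.25% of all genes had groups that did not. With the photoreceptor score (the mean log2 value of the 8 photoreceptor genes) as a covariate, Mlana, Gpr143, Oca2 and Mitf were below 0. With array weights, which come from how closely each library's values follow its group and from no separate quality measure, the estimate of Tyrp1 went from 0.55 to 1.15 (adjusted p = 0.0586, limma). Pmel passed (log2 fold change 1.41, adjusted p = 0.0221, limma), in a fit that called 32.6% of all genes. Leaving out libraries 14, 15 and 18, all Ceacam1-/-, cannot move the wild type estimates and only narrows the spread that the groups share. It called none of the 10 genes in wild type, with 10.8% of genes called.

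In Ceacam1-/- mice the laser difference was below 0 for all 10 genes with every library and above 0 for all 10 without libraries 14, 15 and 18. With every library, 3.72% of genes were called and no melanin gene, and the log2 fold changes ran from -1.22 for Gpr143 (standard error 0.65, adjusted p = 0.304, limma) to -0.17 for Tyrp1, with a median of -0.49. The 3 libraries were picked with their low melanin values seen, so p-values and intervals without them do not test a rise. Without them, Pmel passed the threshold, with a log2 fold change of 1.56 (standard error 0.48, 95% confidence interval 0.56 to 2.56, adjusted p = 0.0418, limma), where 10.2% of all genes were called. The next were Tyrp1 at 1.44 (adjusted p = 0.0841, limma) and Slc45a2 at 1.24 (adjusted p = 0.0811, limma), and the lowest was Gpr143 at 0.15, with a median of 0.68. With a score of the RPE genes as a covariate, in all libraries, Oca2 was the gene that passed in Ceacam1-/- mice, at 1.16 (adjusted p = 0.0316, limma), where 3.23% of genes were called. Pmel and Oca2 each passed under 1 of these settings and not under the other.

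The test of whether laser acted differently in the genotypes called no gene (0%), and 1241 genes were under an unadjusted p of 0.05, with none of the 10 among them. The difference between the laser effects, Ceacam1-/- minus wild type, lay between -1.33 and -0.72 for the 10 genes on the log2 scale (median -1.0). Without libraries 14, 15 and 18 it lay between 0.04 and 0.89 (median 0.28), and again 0% of genes were called. These comparisons share their control libraries, so the directions of the 10 genes in them are not independent of each other.

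**Figure D4:**
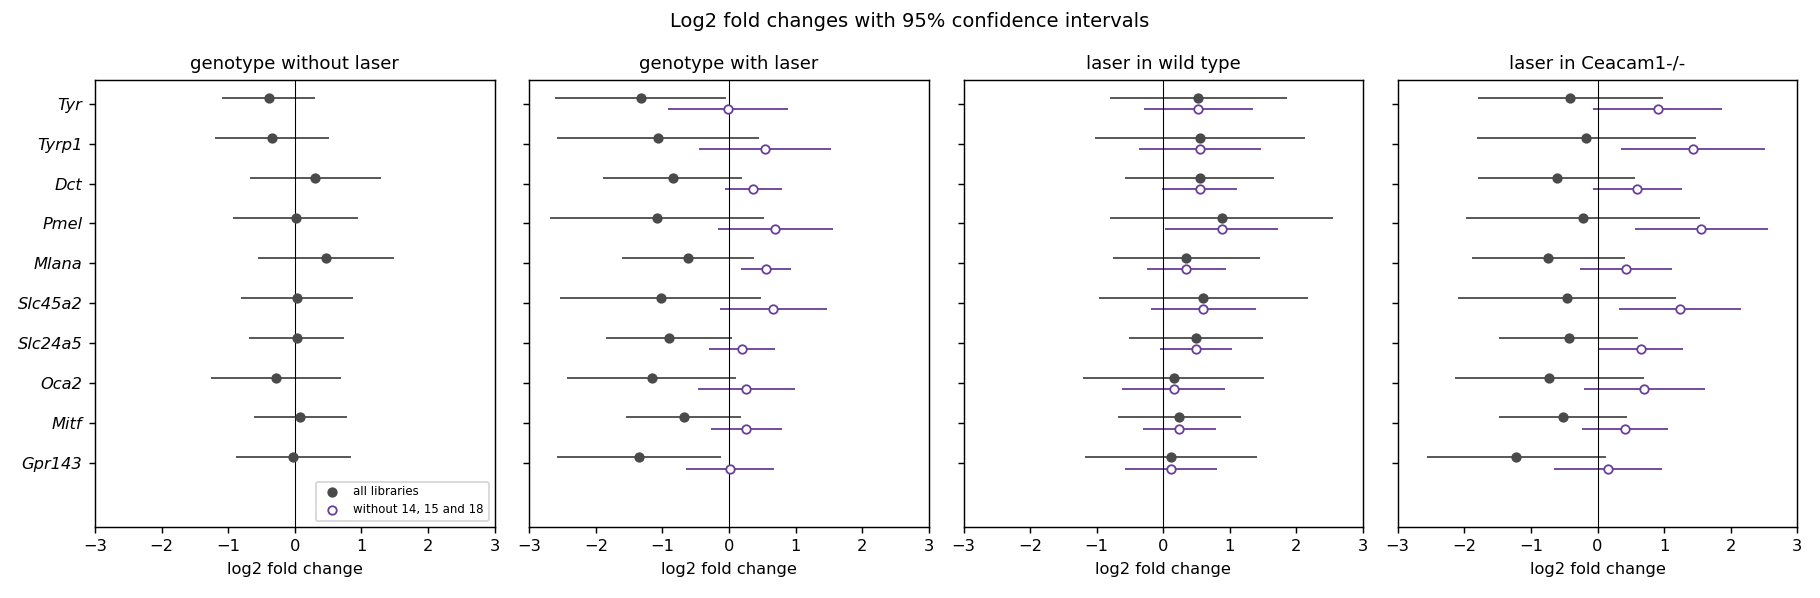
Log2 fold change (point) and 95% confidence interval (line) of each melanin synthesis gene in 4 comparisons, with all libraries (filled) and without libraries 14, 15 and 18 (open). In laser-treated mice the genotype difference moves from a median of -1.05 to 0.31 when these libraries are left out. In wild type mice the laser estimates cannot move, as these libraries are Ceacam1-/-, and have shorter intervals.

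The 10 genes varied together across libraries, and part of this came from the 3 low libraries. Pearson's r between log2 values over 24 libraries ran from 0.70 to 0.99 for the 45 pairs (median 0.91), and over the other 21 libraries from 0.07 to 0.96 (median 0.72). These are descriptions over libraries that differ in tissue composition. Over the 21 libraries the closest pairs were Tyrp1 with Slc45a2 and Pmel with Slc45a2, both at 0.96, and the SD of their log2 ratio was 0.24 and 0.26. Dct went with Mlana (r = 0.89, SD of the log2 ratio 0.25) and Oca2 with Gpr143 (r = 0.87, SD 0.33). The most distant pair was Tyr with Mlana (r = 0.07, SD 0.90), followed by Oca2 with Mlana (r = 0.12). The genes thus did not vary as 1 block once the 3 libraries were set aside.

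Markers of the pigmented cell types differed in which of the 10 genes they followed most closely. Rpe65 and Rlbp1, both of the RPE visual cycle, had an r over 21 libraries of 0.71 and 0.67 with Oca2, 0.66 and 0.69 with Gpr143 and 0.52 and 0.51 with Tyr. The values were 0.00 and -0.13 with Dct and -0.27 and -0.34 with Mlana. Pax3, a transcription factor of melanocytes and their precursors, had an r of 0.87 with Dct, 0.78 with Slc24a5, 0.75 with Mlana, 0.74 with Mitf and 0.71 with Slc45a2, and between 0.43, with Tyr, and 0.65 with the other 5. Sox10 ranged between 0.23 with Tyr and 0.54 with Gpr143, and did not divide the genes in the same way. Ednrb, the endothelin receptor of melanocytes, had its highest r with Tyrp1 (0.79), Pmel (0.77) and Slc45a2 (0.73), and 0.66 with Tyr, 0.44 with Dct and 0.39 with Mlana, so the melanocyte markers did not share 1 order. Kit, the stem cell factor receptor, and Mc1r, the melanocortin receptor, had no r above 0.29 with any of the 10, and Best1, a chloride channel of RPE, none above 0.34. Over all 24 libraries, r lay between 0.59 and 0.91 with Rpe65 and between 0.80 and 0.93 with Sox10 for the 10 genes. In library 28, the untreated Ceacam1-/- library with the highest Mlana, Rpe65 was at 10506, the lowest value among the 21.

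**Figure D5:**
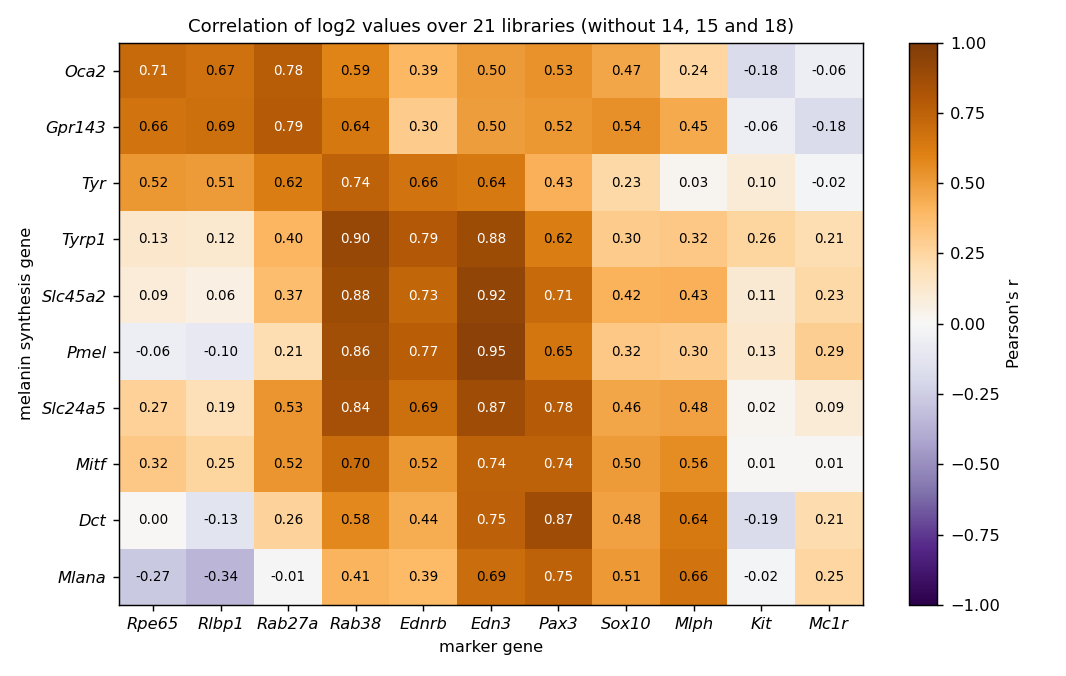
Pearson's r over 21 libraries between log2 values of the 10 melanin synthesis genes (rows) and of marker genes of RPE, melanosomes and melanocytes (columns). Rpe65 and Rlbp1 correlate most with Oca2 and Gpr143, at 0.66 to 0.71, and Pax3 most with Dct, at 0.87.

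Genes outside the set were ranked by how closely they followed the mean of the 10 centred log2 values, over 24 libraries and among 19950 genes. The closest were Mcoln3 (r = 0.96), a cation channel of endosomes, Tmem51 (0.96), Hpse (0.95), which encodes heparanase, and Edn3 (0.95), which encodes the ligand of the melanocyte receptor EDNRB. Then came Ptger2, a prostaglandin receptor (0.95), Aldh2 (0.94), Plxdc1 (0.94), Aph1c (0.94), Pax3 (0.94) and Slc12a4 (0.93). Without libraries 14, 15 and 18, r was 0.90 for Mcoln3, 0.91 for Hpse and 0.89 for Edn3 but 0.73 for Aldh2 and Slc12a4. With the mean of each group taken out, over all 24 libraries, the 5 closest were Mcoln3 (0.97), Edn3 (0.97), Tmem51 (0.96), Hpse (0.96) and Aldh2 (0.96). Edn3 went furthest with Pmel among the 10 genes, with an r of 0.95 over the 21 libraries. In the laser-treated Ceacam1-/- libraries 4 to 7 it had 7192, 7111, 8020 and 12983 normalized counts, against 2095 to 4315 in the 4 untreated ones and 522, 1840 and 517 in libraries 14, 15 and 18.

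Among other genes of the melanosome, some were called after laser. Of 26 melanosome biogenesis genes, which include machinery that sorts cargo to the organelle and some of its membrane proteins, 4 rose in laser-treated wild type mice and none fell, where 5.28% of all genes tested were called. These were Gpnmb, Rab32, Mfsd12 and Ap3s1. Gpnmb, a glycoprotein related to Pmel that macrophages also make, had 4443, 6852, 11500 and 4793 normalized counts without and 8827 to 39837 (median 28009) with laser in wild type mice. It rose by 1.98 on the log2 scale (standard error 0.50, adjusted p = 0.0201, limma). Rab32, a small GTPase of melanosome cargo transport, rose by 1.37 (adjusted p = 0.0256, limma), Mfsd12, a cysteine importer, by 0.84 (adjusted p = 0.0347, limma) and Ap3s1, an AP-3 subunit, by 0.50 (adjusted p = 0.0123, limma). In Ceacam1-/- mice 2 of the 26 rose, Mfsd12 by 0.91 and Ap3s1 by 0.54 (adjusted p = 0.0375 and 0.0167, limma), where 3.72% of all genes were called. Gpnmb was at 5869, 5409 and 3150 in libraries 14, 15 and 18 against 22065 to 29013 in the other 4. Without these libraries 5 of 26 rose in each genotype, Gpnmb, Rab32, Mfsd12, Ap3s1 and Cd63 in both, where 10.8% of all genes were called in wild type and 10.2% in Ceacam1-/- mice. Gpnmb, Mfsd12 and Ap3s1 overlap genes on the opposite strand, and so do Mc1r and Egr2. Ap3s1 also overlaps gene models on its own strand. The list's median log2 fold change was 0.25 in wild type and 0.13 in Ceacam1-/- mice, beside -0.10 and 0.02 for all genes. Cd63, the most abundant of the list (28423 ± 13746, SD, n = 24), is a general marker of lysosome-related organelles.

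Myeloid genes moved with these. Of 8 myeloid genes, 7 rose in wild type and 5 in Ceacam1-/- mice after laser, beside 5.28% and 3.72% of all genes called. Without libraries 14, 15 and 18 the counts were 8 and 7, beside 10.8% and 10.2%. Lyz2 (lysozyme), the most abundant, rose by 2.74 and 2.44 (adjusted p = 0.000129 and 0.00193, limma) and Cd68, a lysosomal protein of macrophages, by 2.77 and 2.05 (adjusted p = 0.000141 and 0.00908, limma). Ptprc, Adgre1 and Aif1, all leukocyte genes, rose in both genotypes too, by 1.27 to 2.34 on the log2 scale. The part of macrophages in the rise of Gpnmb was not tested. No gene of the RPE (12), photoreceptor (8), endothelial (7), ciliary body and iris (6), skeletal muscle (6), surface epithelium (6), lens (6) and Y-linked (4) lists passed in any comparison, with all libraries or without libraries 14, 15 and 18. At an unadjusted p under 0.05, however, 10 of 12 RPE genes (median log2 fold change -1.56) and 6 of 6 skeletal muscle genes (median -2.07) were lower in laser-treated than in untreated Ceacam1-/- mice with all libraries, where 3997 of 19950 genes were under that p. Without the 3 libraries it was 0 of 12 (median -0.59) and 4 of 6 (median -1.55), where 4717 of 19723 genes were under that p. Of the 7 fibroblast and sclera genes, Col3a1 and Lum rose in wild type and Lum in Ceacam1-/- mice. Without the 3 libraries 4 of the 7 rose in wild type and all 7 in Ceacam1-/- mice, and the list's median log2 fold change in Ceacam1-/- mice went from 1.23 to 2.38. The Schwann cell list had 1 call, Egr2, a transcription factor that macrophages also use, at 2.30 in wild type (adjusted p = 0.00438, limma). Without the 3 libraries Egr2 rose in Ceacam1-/- mice too, by 2.43 (adjusted p = 0.000475, limma).

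None of the 7 melanosome transport genes, with Myo5a as the most abundant (3277 ± 924, SD, n = 24), passed the test in any comparison with all libraries. Mreg, at a log2 fold change of -1.23 for laser in wild type mice, passed only without libraries 14, 15 and 18 (adjusted p = 0.0238, limma), where 10.8% of all genes were called. Wild type laser estimates are the same in both fits, since these libraries are Ceacam1-/- and leaving them out only narrows the shared spread. Of the 13 pigment cell transcription factors, Mitf included, Tfec was called, rising by 2.01 in laser-treated Ceacam1-/- mice (adjusted p = 0.0412, limma), and by 2.58 without the 3 libraries (adjusted p = 0.00691, limma), beside 3.72% and 10.2% of all genes called. Tfec belongs to the family of MITF and is used by RPE and macrophages. Its counts were low, at 1.80 to 18.4 without and 11.8 to 71.3 with laser in these mice. Otx2, which directs RPE identity and is also used in photoreceptors, was the most abundant of that list, and Pax6 was higher in libraries 14, 15 and 18 (5233 to 6659) than in all others (58.8 to 3785), as were 4.07% of all genes tested. Of the 8 melanocyte receptors and ligands, of which agouti was too low to be tested, Mc1r rose in laser-treated Ceacam1-/- mice, by 1.40 (standard error 0.40, adjusted p = 0.0481, limma). It had 43.0, 14.7, 7.74 and 37.5 normalized counts without and 46.1 to 99.2 (median 53.4) with laser in these mice, so the groups did not overlap, as was the case for 2.13% of all genes tested. It rose by 1.49 without libraries 14, 15 and 18 (adjusted p = 0.0473, limma). Libraries 14, 15 and 18, lowest for the 10 melanin genes, had 59.1, 46.1 and 53.4. In wild type mice Mc1r had 38.9, 23.7, 26.8 and 35.5 without and 15.2 to 49.8 with laser, a log2 fold change of -0.15 (adjusted p = 0.844, limma). The difference between the genotypes in this laser effect was 1.55 on the log2 scale and was not called (adjusted p = 0.640, limma). Without the 3 libraries Edn3 also rose in laser-treated Ceacam1-/- mice, by 1.53 (adjusted p = 0.0113, limma), and Kitl, which encodes the ligand of Kit, rose by 0.85 in Ceacam1-/- and by 0.65 in wild type mice (adjusted p = 0.0299 and 0.0484, limma), beside 10.2% and 10.8% of all genes called. Ednrb was the most abundant receptor (6194 ± 3153, SD, n = 24). The agouti gene, an antagonist of the melanocortin receptor, was at 0 in most libraries and at most 3.79 in the remainder. Among the 8 melanocyte markers outside the melanin genes, Mc1r was the one call, with all libraries and without the 3, beside the same 3.72% and 10.2% of all genes called for laser in Ceacam1-/- mice. Of the 7 receptors and ligands tested, 1 and 3 rose in that comparison. The most abundant genes of the remaining lists were Ttr, the thyroxine carrier (135819 ± 96292 normalized counts, SD, n = 24), for RPE, Plvap for endothelium, Col1a1 for fibroblasts and sclera, Mbp for Schwann cells, Des for ciliary body and iris, Acta1 for skeletal muscle, Krt15 for surface epithelium, Cryaa for lens and Ddx3y for the Y-linked genes. In neither genotype comparison nor in the interaction did any gene of these lists pass the test.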

How the data were processed

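RNA of the choroid was sequenced from SMART-Seq libraries. Per the labels and the methods, the authors used FastQC 0.11.5, Salmon 1.10.3 with GRCm39, and DESeq2 1.44.0. The signal they deposited for 56065 genes (40409 of them above 0 in at least 1 library) is a normalized count, scaled for library size and transcript length, so the depth in reads and its sampling error are unknown. The study screened for outliers and removed 1 sample that it does not name, and it modelled sex, which the labels do not give and which was left out here. Groups came from the labels.

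Positions, exon lengths and starts came from a later GENCODE release on GRCm39, which matched 99.1% of identifiers. Genes with a mean of at least 10 entered limma 3.58.1 (R 4.3.3) on the log2 scale (pseudocount of 1), using a variance trend and Benjamini-Hochberg adjustment over all genes tested (threshold 0.05). Genotype was fitted in 8 and in 16 libraries, and laser and the interaction in all 24. Fold changes on this scale understate those of low genes. In data simulated for genotype without laser, 0 of 200 genes changed by 1 on the log2 scale were called (20360 genes) and 74 of 200 changed by 2 (20349 genes). For laser in wild type the calls were 63 (19934 genes) and 142 (19942 genes). Both simulations used each gene's within-group variance averaged over all groups, laser-treated ones included. They therefore need not give the recovery at the spread of the untreated libraries.

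The members and the 16 other gene lists were chosen with earlier results of these data known. The rule named the 10 members, Ceacam1, the most abundant gene and up to 5 called genes of lowest p per list, Sox10, Kit, Mc1r, Rpe65, Rlbp1, Best1, and the genes closest in pattern to the members (10, and 5 with group means taken out). Pax6, Kitl, Mreg, Ednrb with single members, agouti (matched through its mouse symbol, a) and the markers Rab27a, Rab38 and Mlph in a figure were added after their values were seen. The most abundant gene of some lists is not reported here. Alternatives changed the pseudocount (0.5 or 10), the filter (none, or a mean of 50 or more), the scaling (quantile or upper-quartile), the variance trend, array weights, a Y-linked covariate, the set of libraries fitted, the gene length used, and the untreated libraries, left out singly. Chosen after seeing the data were the fits without libraries 14, 15 and 18 and those with the mean log2 value of the photoreceptor or of the RPE genes (the photoreceptor or RPE score) as covariate. Tables and figures were made in Python 3.11.15 (pandas 2.3.3, with numpy 2.4.6, scipy 1.17.1, matplotlib 3.10.9).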

Additional observations from a re-analysis of the deposited data

Results flagged for a closer look

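In 5 of 40 sets of a gene and a group, the highest or lowest library was far from the nearest of the others on the log2 scale (Dixon's test at 95%, which chance passes in about 1 of 20 sets). Among the untreated wild type libraries, library 26 was high for Dct at 55225 and for Slc24a5 at 6224 normalized counts. Among the untreated Ceacam1-/- libraries, library 23 was low for Mitf at 669. Among the laser-treated wild type libraries, library 17 was low for Pmel at 5586 and library 2 was high for Mlana at 14146. In the laser-treated Ceacam1-/- group no single library stood out in this way, and libraries 14, 15 and 18 were low together.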

How the results depend on the processing

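Of 750 recomputed log2 fold changes of single melanin genes, 654 kept their direction and their side of the threshold, 1 passed the threshold in the same direction and 95 changed sign, and the cause was not tested. Many of them could not change sign. The filter, the variance trend and the set of libraries fitted do not alter a fold change. Libraries of 1 genotype do not enter the laser estimate of the other. The 654 therefore do not measure stability. The count of melanin genes called was 0 in the 5 comparisons under the alternatives run, except for 3 settings with 1 call each, Pmel for laser in wild type mice with array weights and, for laser in Ceacam1-/- mice, Pmel without libraries 14, 15 and 18 and Oca2 with the RPE score. The adjusted p (limma) of the 10 genes over the alternatives lay between 0.35 and 1.0 for genotype without laser, 0.167 and 1.0 for genotype with laser, 0.0221 and 0.999 for laser in wild type mice and 0.0316 and 0.995 for laser in Ceacam1-/- mice.

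Without libraries 14, 15 and 18, the sign changed for genotype with laser, Tyrp1 at 0.54, Dct at 0.36, Slc45a2 at 0.66, Mlana at 0.56, Gpr143 at 0.018, Pmel at 0.70, Oca2 at 0.26, Mitf at 0.26 and Slc24a5 at 0.19, and for laser in Ceacam1-/- mice, Tyr at 0.91, Tyrp1 at 1.44, Dct at 0.60, Slc45a2 at 1.24, Mlana at 0.43, Gpr143 at 0.15, Pmel at 1.56, Oca2 at 0.70, Mitf at 0.42 and Slc24a5 at 0.66. With the RPE score as covariate, the sign changed for genotype with laser, Tyr at 0.61, Tyrp1 at 1.13, Dct at 0.54, Slc45a2 at 1.17, Mlana at 0.62, Gpr143 at 0.59, Pmel at 1.10, Oca2 at 0.93, Mitf at 0.57 and Slc24a5 at 0.52, and for laser in Ceacam1-/- mice, Tyr at 1.25, Tyrp1 at 1.48, Dct at 0.52, Slc45a2 at 1.22, Mlana at 0.19, Gpr143 at 0.46, Pmel at 1.39, Oca2 at 1.16, Mitf at 0.54 and Slc24a5 at 0.73. With the photoreceptor score, the sign changed for genotype without laser, Dct at -0.046, Slc45a2 at -0.27, Pmel at -0.25, Mitf at -0.18 and Slc24a5 at -0.24, and for laser in wild type mice, Mlana at -0.033, Gpr143 at -0.25, Oca2 at -0.22 and Mitf at -0.026, and for laser in Ceacam1-/- mice, Tyrp1 at 0.29, Slc45a2 at 0.12 and Pmel at 0.36. With array weights, the sign changed for genotype without laser, Tyrp1 at 0.18 and Gpr143 at 0.038, and for genotype with laser, Tyrp1 at 0.13, Dct at 0.25, Slc45a2 at 0.25, Mlana at 0.41, Pmel at 0.32 and Mitf at 0.019, and for laser in Ceacam1-/- mice, Tyr at 0.49, Tyrp1 at 1.11, Dct at 0.23, Slc45a2 at 0.93, Pmel at 1.17, Oca2 at 0.49, Mitf at 0.14 and Slc24a5 at 0.30. With quantile normalization, the sign changed for genotype without laser, Gpr143 at 0.0031, Pmel at -0.058 and Slc24a5 at -0.0096. With upper-quartile scaling, the sign changed for genotype without laser, Gpr143 at 0.019. With the Y-linked covariate, the sign changed for genotype without laser, Pmel at -0.012. The median interaction of the 10 genes was 0.28 without libraries 14, 15 and 18 and 0.40 with the RPE score. With each untreated library left out in turn, the values that crossed 0 ranged, for genotype without laser Slc45a2 from -0.17 to 0.35, Pmel from -0.22 to 0.34, Slc24a5 from -0.096 to 0.30, Mitf from -0.038 to 0.34, Gpr143 from -0.26 to 0.29 and Oca2 from -0.59 to 0.059, for laser in wild type mice Gpr143 from -0.10 to 0.42 and Oca2 from -0.12 to 0.50, for laser in Ceacam1-/- mice Pmel from -0.40 to 0.016.

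With the longest transcript the level per kilobase moved by more than its SD over the 24 libraries for Dct, Slc24a5 and Mitf, the last to 241, and by less than its SD for 6 others, and that of Slc45a2 was the same. No paired analysis was possible because the groups share no replicate numbers. Read depth is unknown, so no counting error could be given. With 4 untreated libraries per genotype, no change of 1 on the log2 scale was called in simulated data. The simulated spread was averaged over all groups, laser-treated ones included, so this need not hold at the spread of the untreated libraries.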
